A study of Mus musculus with 35 samples.

Results

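The RNA of neuroectoderm (NE) cells that carry a catalytically inactive TET3 was compared with that of wild type NE cells on day 3 of differentiation. The 6 samples compared, 3 Tet3m/m and 3 Tet3+/+, were chosen by genotype and day alone, out of the 35 samples of the series, of which 26 are RNA-seq samples. Both genotypes are male mouse V6.5 embryonic stem cells (ESCs) of a mixed 129/C57BL/6 background, treated for 72 hours with 1 µM retinoic acid (RA) after withdrawal of LIF. Tet3m/m cells carry on both alleles substitutions of a pair of residues in the catalytic centre. The level of the protein was not measured by these data. The Tet3m/m lines are clones derived by gene targeting from single ESCs, so a difference that a clone acquired during its derivation cannot be told apart from one due to the mutation. A Tet3-/- group of 2 samples lent its spread to the statistical fit and is given only where its values bear on a Tet3m/m result. The p-values measure the spread between these cultures and clones.

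TET enzymes oxidize 5-methylcytosine in DNA to 5-hydroxymethylcytosine and further products, a step towards the removal of the methyl group. TET3 is the TET enzyme of the oocyte and of developing neural tissue. RA drives ESCs without LIF out of pluripotency towards neural precursors, and in the embryo it also sets the position of neural cells along the body axis by acting on Hox genes.

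Each sample held between 39556259 and 47710548 reads assigned to genes, and 17915 genes with a mean of at least 10 normalized counts were tested. Tet3 RNA itself stood at 4612, 4576 and 5020 normalized counts in Tet3+/+ and 2666, 2277 and 1945 in Tet3m/m samples, and the mutant values were all lower (log2 fold change -1.05, SE 0.13, adjusted p = 0.00071). A count per gene does not show the substitutions, so it does not check the genotype. Sox1, Pax6, Tubb3 and Neurog2, which mark neural cells, were detected in all 6 samples. Sox1, the earliest NE marker, ranged from 1063 to 3013 normalized counts in Tet3+/+ and from 396 to 1765 in Tet3m/m samples, so the groups overlapped. Naive pluripotency genes were also present in every sample, with summed levels of 16807 to 22552 in Tet3+/+ and 22538 to 46093 in Tet3m/m samples. In such bulk cultures, a smaller share of cells of one type and less RNA per cell of that type cannot be told apart. Of the feeder markers, 1 of 10 genes was called up (Thy1, a call lost without any 1 of Tet3+/+ replicates 1, 2 and 3 or Tet3m/m replicates 1 and 2), with summed levels of 15031 to 22587 in Tet3+/+ and 10422 to 17718 in Tet3m/m samples.

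In total, 1836 differentially expressed genes (DEGs, changed more than 1.5-fold in either direction at an adjusted p under 0.05 by limma) were found, 907 upregulated and 929 downregulated in Tet3m/m NE cells. They made up 10.2% of the genes tested, 5.06% up and 5.19% down (6.93% and 5.97% with DESeq2, and 5.17% and 4.99% with edgeR), and the median log2 fold change of all genes was 0.00. Changes above 4-fold were found for 173 upregulated and 144 downregulated genes, whereas changes above 16-fold were found for 2 upregulated and 28 downregulated genes. The count of upregulated genes was 563 without Tet3m/m replicate 2 and 561 without Tet3+/+ replicate 3. A run of neighbouring genes on chromosome 6 and the whole of chromosome 8 were lower in Tet3m/m cells and are described at the end. Outside both, 892 genes were up and 570 down of 16598 genes. Genes named below kept an adjusted p under 0.05 with each of the 6 samples left out in turn unless a sample is given. The fold threshold was not part of this check, so a gene near 1.5-fold may lose its call with a sample left out. Where no member of a list is said to have moved in one direction, limma, DESeq2 and edgeR each called none except as stated, and the count at an unadjusted p under 0.05 is given beside it. Lists of genes with a shared role covered 1032 genes in 41 lists and held 272 of the DEGs. Counts within a list are to be read against the shares of all genes given above. The groups did not overlap in 1830 of the 1836 DEGs, and this was required of genes named for the size of their rise or fall. Separate groups are therefore given below as a description and add no support to a call.

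**Figure D1:**
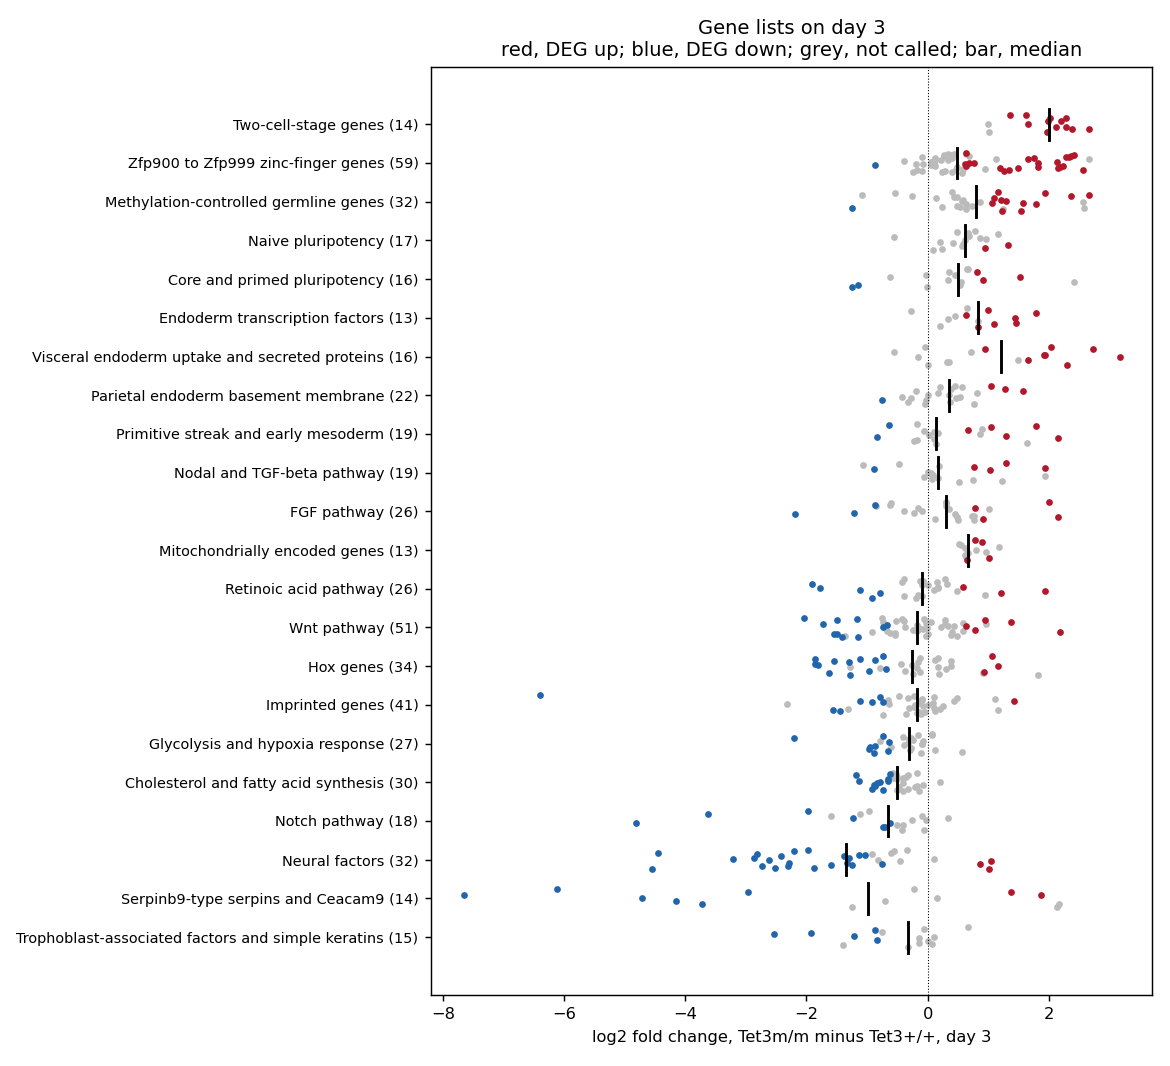
Log2 fold change between Tet3m/m and Tet3+/+ NE cells (x axis) for each member of 22 gene lists (y axis, with the number of members tested); red points are DEGs up, blue points DEGs down, grey points not called, and black bars list medians. The lists run from 2-cell-stage genes, with a median of 2.01, to neural factors, with a median of -1.35, and the lowest single points are Serpinb9e at -7.65 and Mest at -6.40.

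The gene with the smallest adjusted p among those named was Mest, a paternally expressed imprinted gene that encodes an alpha/beta hydrolase. Mest stood at 36223, 31972 and 35503 normalized counts in Tet3+/+ and 363, 516 and 365 in Tet3m/m samples (log2 fold change -6.40, SE 0.16, adjusted p = 8.87e-09). The groups were far apart, and the Tet3-/- samples, at 34766 and 24732, lay near the wild type (knockout minus mutant 6.16, adjusted p = 4.29e-08, from the same fit and with the same Tet3m/m samples). Mest lies in the chromosome 6 run, but its fall went far beyond the median of that run. Its neighbour Copg2, a coat protein gene that overlaps a Mest transcript on the opposite strand, stood at 3513, 3664 and 3536 normalized counts in Tet3+/+ and 1565, 1719 and 1633 in Tet3m/m samples (log2 fold change -1.12, SE 0.10, adjusted p = 0.00012). Whether reads were counted by strand is not given in the sources used here, so the reads of both genes cannot be fully told apart.

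Imprinted genes are expressed from one parental allele, and the allele is marked by DNA methylation. Of 41 such genes tested, 7 were down and 1 was up (2 without Tet3m/m replicate 1 or Tet3+/+ replicate 1), with a median of -0.18. Igf2, a fetal growth factor, had 25790, 20056 and 18513 normalized counts in Tet3+/+ and 5516, 7508 and 9083 in Tet3m/m samples (log2 fold change -1.56, SE 0.18, adjusted p = 0.000429). Dlk1, a Notch-like membrane protein of growth control, had 17508, 13760 and 12977 normalized counts in Tet3+/+ and 5836, 5354 and 4879 in Tet3m/m samples (log2 fold change -1.45, SE 0.12, adjusted p = 9.68e-05). Cdkn1c, a maternally expressed inhibitor of cyclin-dependent kinases, stood at 10847, 9621 and 11474 normalized counts in Tet3+/+ and 4952, 5788 and 6140.2 in Tet3m/m samples (log2 fold change -0.92, SE 0.10, adjusted p = 0.000388). For all 3 genes each Tet3m/m sample was below each Tet3+/+ sample. Magel2, a ubiquitin ligase regulator from the Prader-Willi region, was the imprinted gene that rose, from 231, 192 and 144 in Tet3+/+ to 426, 594 and 491 in Tet3m/m samples (log2 fold change 1.42, SE 0.21, adjusted p = 0.00188). H19, a maternally expressed RNA next to Igf2 and named here after its values were seen, was at 63604, 62229 and 57756 in Tet3+/+ samples and at 78052, 75251 and 10191 in Tet3m/m samples. It was thus low in the third Tet3m/m sample alone and was not called (log2 fold change -0.64, SE 0.61, adjusted p = 0.534).

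The largest fall among genes above 200 normalized counts was that of Serpinb9e, a member of a mouse family of intracellular serine protease inhibitors. Serpinb9e had 358, 254 and 451 normalized counts in Tet3+/+ and 0, 0 and 4.07 in Tet3m/m samples (log2 fold change -7.65, SE 0.58, adjusted p = 6.6e-05). Because values at 0 make this fold depend on the pseudocount, it was -9.96 with a pseudocount of 0.1 and -5.84 with one of 5. Its neighbours followed, with Serpinb9g at 98.3, 111 and 150.2 against 6.15, 3.37 and 2.04 and Serpinb9f at 104, 91.5 and 128 against 6.15, 5.06 and 4.07 (adjusted p = 0.000105 and 0.000115). In each the groups lay far apart, and the Tet3-/- samples had 298 and 318 counts of Serpinb9e. Ceacam9, a cell adhesion gene of the trophoblast, was at 69.4, 87.8 and 51.4 in Tet3+/+ samples and at 0 in all 3 Tet3m/m samples, at least 24.1-fold lower against a floor of 3 reads per library (adjusted p = 0.00197). Of the 14 serpins and Ceacam genes listed, 6 fell and 2, Serpinb6c and Ceacam1, rose (median -0.98). Serpinb9 genes are near-identical copies, so reads may have been split among them by the authors' counting.

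**Figure D2:**
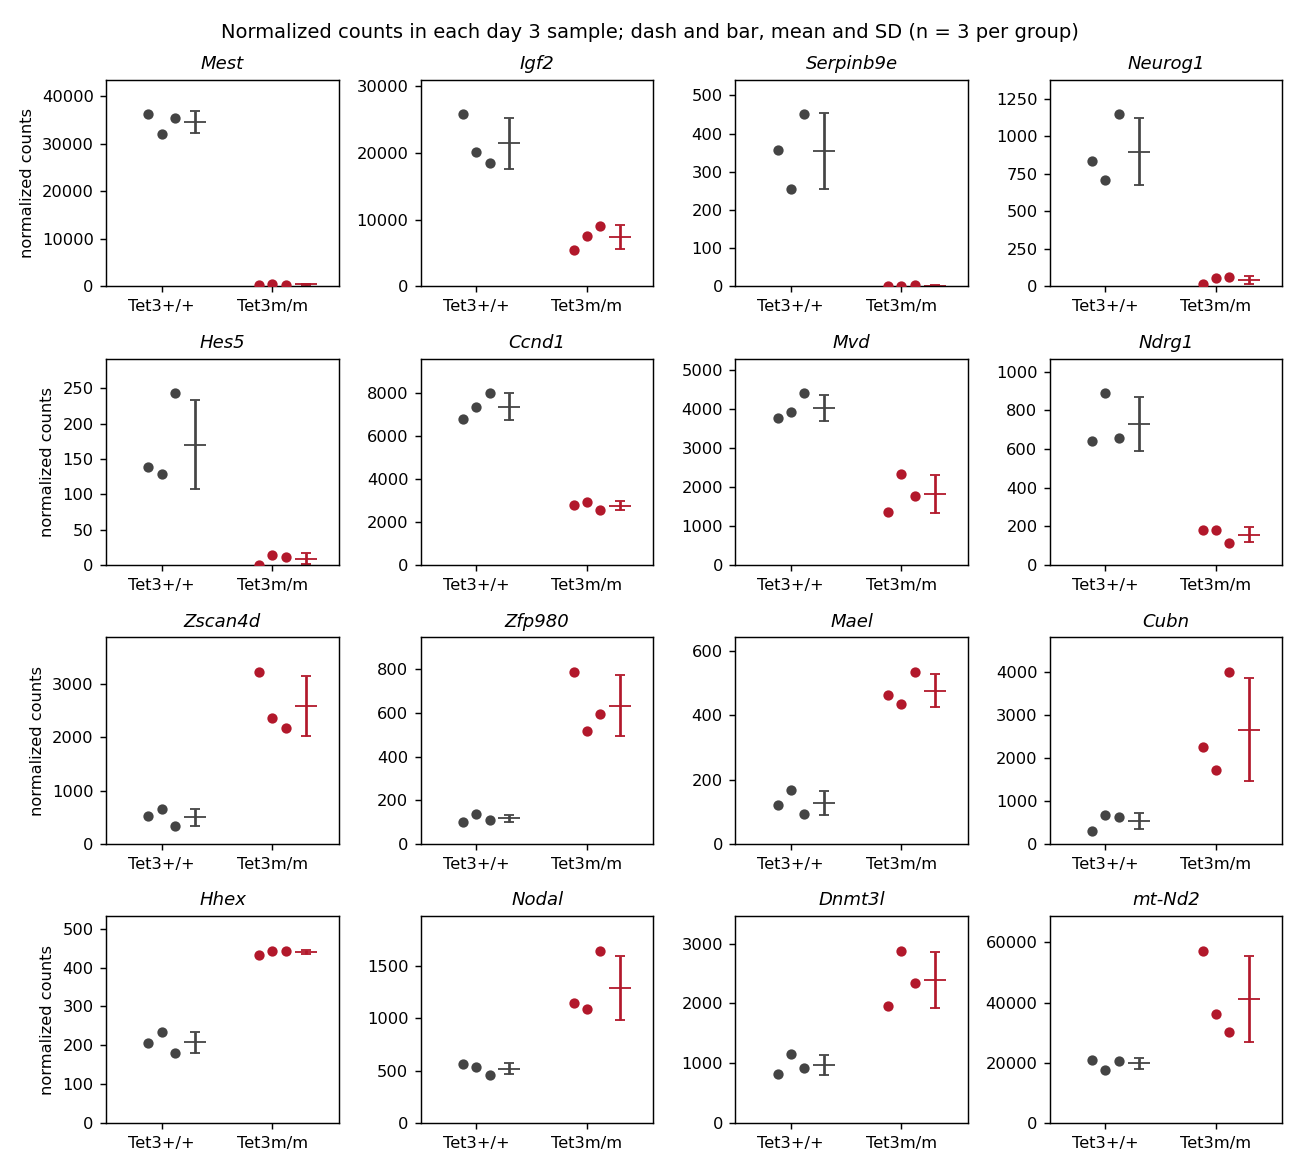
Normalized counts (y axis, starting at 0) of 16 genes in each of the 3 Tet3+/+ (grey) and 3 Tet3m/m (red) samples; points are samples, and the dash and bar give the mean and SD. In all 16 panels every Tet3m/m sample lies on one side of every Tet3+/+ sample, as 36.7% of all genes tested do.

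The list of neural factors, which includes the neural markers above, had the most falls of the 41 lists. This list, like the others, was chosen with earlier results of these data known, so its rank is a description and not a test. Of 32 tested, 22 were down and 3 up (Gbx2, Stmn2 and Syn1, none of them called without Tet3+/+ replicate 2, and 1 called without any 1 of Tet3+/+ replicate 1 and Tet3m/m replicates 1 to 3). The list median was -1.35, and that of the 6 proneural transcription factors, which commit progenitors to become neurons, was -2.62 with all 6 down. Summed over the list, Tet3+/+ samples had 19362 to 26932 and Tet3m/m samples 8833 to 13940 normalized counts. Neurog1, a proneural factor of sensory neurons, stood at 837, 712 and 1148 normalized counts in Tet3+/+ and 14.3, 54.8 and 63.1 in Tet3m/m samples (log2 fold change -4.54, SE 0.45, adjusted p = 0.000206). Neurod4, which acts after the neurogenins, stood at 70.4, 116 and 98.8 normalized counts in Tet3+/+ and 6.15, 10.1 and 0 in Tet3m/m samples (log2 fold change -4.45, SE 0.76, adjusted p = 0.00379). Nhlh1 and Nhlh2, helix-loop-helix factors of newborn neurons, fell from 179, 198 and 241 to 2.05, 3.37 and 14.3 and from 322, 243 and 411 to 22.5, 20.2 and 18.3, respectively (adjusted p = 0.000251 and 5.96e-05). Every Tet3m/m value of these genes was below every Tet3+/+ value, which for Nhlh1 and Nhlh2 was a condition of being named.

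Further neural regulators and neuronal RNAs are named as members of that list or for the size of their fall. Dbx1, a homeobox gene of spinal cord interneuron progenitors, had 245, 142 and 262 normalized counts in Tet3+/+ and 0, 5.06 and 28.5 in Tet3m/m samples (log2 fold change -5.22, SE 0.93, adjusted p = 0.00469), with the third Tet3m/m sample the highest of its group. Lbx1, which specifies dorsal spinal interneurons, stood at 201, 217 and 329 against 21.5, 37.1 and 43.8 and Pou3f3, a cortical and hindbrain POU factor, at 819, 802 and 1165 against 65.6, 103 and 138 (log2 fold changes -2.86 and -3.21, adjusted p = 0.000397 and 9.68e-05). The noncoding RNA Miat, expressed in neuronal precursors, fell from 2577, 2398 and 2894 to 152, 214 and 209.8 (log2 fold change -3.78, SE 0.15, adjusted p = 6.04e-07). Mir124-2hg, a host gene of the neuronal microRNA miR-124, fell from 299.7, 292 and 609.8 to 22.5, 15.2 and 18.3, and Sst, the neuropeptide somatostatin, from 259, 198 and 209 to 8.19, 23.6 and 12.2 (adjusted p = 5.96e-05 and 0.000145). The groups were separate for each of these RNAs, which for Dbx1, Miat, Mir124-2hg and Sst was a condition of being named. In neural crest, which arises at the border of the neural plate, 3 of 14 genes fell and 2 rose, and Tfap2b went from 1050.5, 1528 and 1570.5 to 102, 264 and 317 (log2 fold change -2.73, SE 0.40, adjusted p = 0.00169). The rises were in Ets1 (log2 fold change 1.05) and Sox10 (1.30), the latter lost without Tet3+/+ replicate 3.

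Among 46 genes of axon guidance, 11 fell and 5 rose (3 without Tet3+/+ replicate 3), with a median of -0.24. Unc5a, a receptor for netrin that mediates repulsion, stood at 1281, 973 and 1606 normalized counts in Tet3+/+ and 170, 223 and 214 in Tet3m/m samples (log2 fold change -2.64, SE 0.19, adjusted p = 5.96e-05). Robo3, which lets commissural axons cross the midline, stood at 425, 342 and 572 normalized counts in Tet3+/+ and 45.1, 26.1 and 80.4 in Tet3m/m samples (log2 fold change -3.23, SE 0.38, adjusted p = 0.000459). Epha3, an ephrin receptor, stood at 1066, 836 and 1207 normalized counts in Tet3+/+ and 211, 207 and 204 in Tet3m/m samples (log2 fold change -2.30, SE 0.22, adjusted p = 0.000175). These receptors were lower in all 3 Tet3m/m samples, with no overlap. The upregulated genes included the ephrin receptors Epha2 and Epha4 (log2 fold changes 0.91 and 0.87, adjusted p = 0.00428 and 0.00298) and the ligand Sema3e (0.87, adjusted p = 0.00797). Clustered protocadherins, surface proteins that give neurons individual identities, had few calls (2 of 45 up, 2 down, median -0.17), and of the 4 calls Pcdhga12 alone, at 71.3, 80.3 and 95.9 against 369.8, 223 and 196, was kept with each replicate left out, while the falls numbered 4 without Tet3m/m replicate 2 and 0 without Tet3+/+ replicate 1 or 3.

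Notch signalling keeps neural progenitors from differentiating through Hes and Hey repressors, which the factor RBPJ switches on. Hes5 is the Notch target most typical of neural progenitors, and its promoter, shown since Hes5 fell most of the Notch genes, holds 2 matches to the RBPJ letters GTGGGAA (in capitals, 1 on each strand, with the reverse complement written as TTCCCAC). The 250 bases before its start are at chr4:154960673-154960922, plus strand, RefSeq promoter of GRCm38.p6:
Hes5: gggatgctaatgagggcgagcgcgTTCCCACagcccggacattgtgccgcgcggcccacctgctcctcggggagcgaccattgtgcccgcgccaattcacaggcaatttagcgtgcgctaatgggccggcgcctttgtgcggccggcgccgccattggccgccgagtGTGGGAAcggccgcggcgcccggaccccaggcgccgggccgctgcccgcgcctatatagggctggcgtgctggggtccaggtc
The letters, searched on both strands, occur in 5.42% of 32851 promoters, in 6.41% of the tested genes with a promoter there and in 3 of the 14 Notch genes with a promoter there (Hes5, Hey2 and Lfng). A match is a description and not a binding site.

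Hes5 had 139, 129 and 243 normalized counts in Tet3+/+ and 0, 14.3 and 12.2 in Tet3m/m samples (log2 fold change -4.81, SE 0.95, adjusted p = 0.00822). It was nearly absent from all 3 Tet3m/m samples, and the Tet3-/- samples, at 5.3 and 22.8, overlapped with them (knockout minus mutant 1.06, adjusted p = 0.558). Of 18 Notch pathway genes 7 were down and none was up (1 at an unadjusted p under 0.05), 17 of 18 had a negative fold change, and the median was -0.66. Among ligands, Dll4 stood at 101, 79.4 and 119.6 normalized counts in Tet3+/+ and 26.6, 1.69 and 6.11 in Tet3m/m samples (log2 fold change -3.62, SE 0.71, adjusted p = 0.00791). Among targets, Nrarp, a feedback inhibitor, fell from 346, 377 and 423 to 89.1, 99.5 and 99.8 (log2 fold change -1.98, SE 0.22, adjusted p = 0.000388) and Hey1, a repressor, from 418, 437 and 316 to 174, 153 and 167 (log2 fold change -1.23, SE 0.18, adjusted p = 0.00169). Each of these was lower in all mutant samples. Hes1, a repressor that many signals induce, was at 2561, 2361 and 2666 and 2322, 2469 and 2643 and was not called, with overlapping groups (log2 fold change -0.03).

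Hox genes lie in 4 clusters, in which position in the cluster follows position along the body axis. Of 34 Hox genes tested, 12 were down and 3 up. In the Hoxa cluster 6 of 10 genes fell with a median of -1.12, but all 10 lie in the chromosome 6 run. The Hoxd cluster went both ways, with 3 of 7 genes down and 1 up. Of its genes for anterior positions, Hoxd4 fell from 605, 531 and 784 to 217, 191 and 205 (log2 fold change -1.63, SE 0.18, adjusted p = 0.00032) and Hoxd3 fell from 174, 221 and 233 to 58.4, 54 and 57 (log2 fold change -1.86, SE 0.32, adjusted p = 0.00388). The third call down was Hoxd1, lost without Tet3+/+ replicate 1 or 3. Hoxd13, at the posterior end, was the gene up, at 94.4, 61.6 and 69.2 against 178, 147 and 143 (log2 fold change 1.06, SE 0.28, adjusted p = 0.0282), a call lost without Tet3m/m replicate 1 or 2 or Tet3+/+ replicate 2 or 3. Another Hoxd gene had a log2 fold change of 1.82, the highest of all Hox genes, but was not called by limma. DESeq2 called 2 Hoxd genes up and edgeR 1. In the Hoxc cluster Hoxc4, Hoxc5 and Hoxc6 were down. The Hoxb cluster had no gene down (2 at an unadjusted p under 0.05), and both ends of it rose, Hoxb1 from 1879, 1907 and 1744 to 3605, 3577 and 3374 (log2 fold change 0.93, SE 0.12, adjusted p = 0.000857) and Hoxb13 from 295, 291 and 246 to 735, 619 and 534 (log2 fold change 1.17, SE 0.17, adjusted p = 0.00175). No Tet3m/m sample overlapped with a Tet3+/+ sample in Hoxb1, Hoxb13, Hoxd3, Hoxd4 and Hoxd13.

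**Figure D3:**
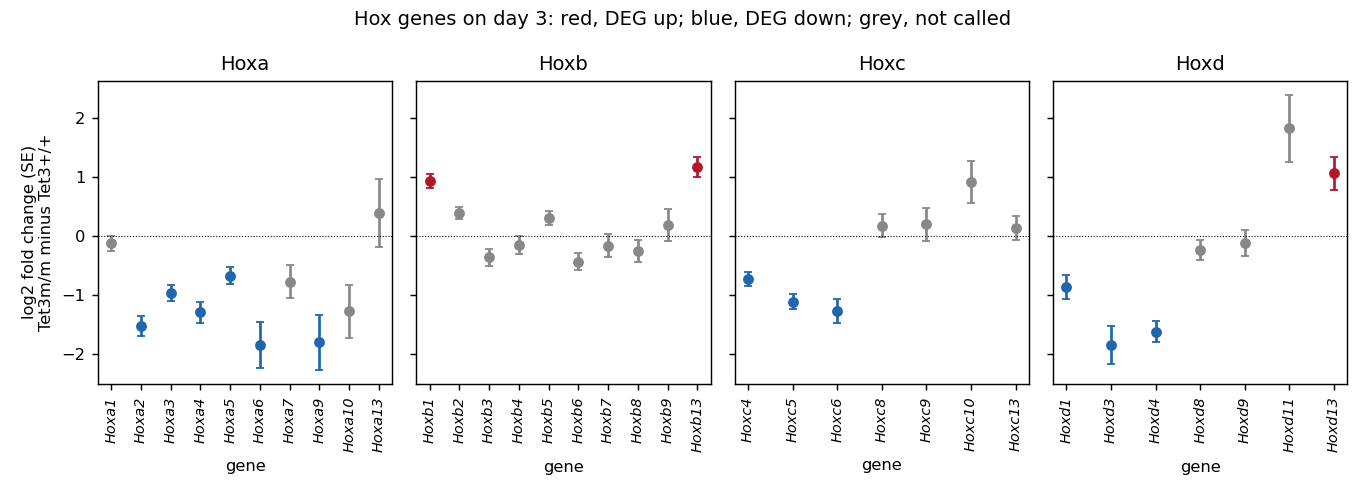
Log2 fold change with its SE (y axis) of the 34 Hox genes tested, ordered by number within each cluster (x axis); red is DEG up, blue DEG down and grey not called. The low-numbered Hoxd and Hoxc genes and most Hoxa genes are below 0, with Hoxd3 at -1.86, whereas Hoxb1, Hoxb13 and Hoxd13 are above it. The highest point, at 1.82, is a Hoxd gene that was not called.

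The genes that handle RA itself moved in both directions (5 of 26 down, 3 up, median -0.09, with 3 down without Tet3+/+ replicate 2). The RA-binding protein Crabp1 had 2339, 2936 and 2113 normalized counts in Tet3+/+ and 327, 802 and 1058 in Tet3m/m samples (log2 fold change -1.90, SE 0.35, adjusted p = 0.00585). Aldh1a2, which makes RA from retinal, had 1660.5, 1523 and 917 normalized counts in Tet3+/+ and 299, 406 and 470.4 in Tet3m/m samples (log2 fold change -1.78, SE 0.29, adjusted p = 0.00285). In both genes the Tet3m/m samples were all lower. Nr2f1, an orphan nuclear receptor of neural tissue, fell from 6578, 5878 and 7460.3 to 3371, 3656 and 3494 (log2 fold change -0.91, SE 0.10, adjusted p = 0.000313). Cyp26c1, an RA-degrading enzyme, rose from 200.5, 251 and 263 to 462, 590.2 and 609 (log2 fold change 1.21, SE 0.19, adjusted p = 0.00253), and so did the retinal reductase Dhrs3 (log2 fold change 0.59, adjusted p = 0.0067). Of these 2 calls 1 was left without Tet3m/m replicate 3 or Tet3+/+ replicate 2. Cyp26a1, the RA-degrading enzyme most directly induced by RA, was at 9119, 8273 and 10733 and 11538, 12661 and 15454 with an adjusted p = 0.0479, but its log2 fold change of 0.49 was under the fold threshold. None of the 6 RA and retinoid X receptors was called (1 was higher and 0 lower at an unadjusted p under 0.05).

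Of 16 Wnt ligands 5 were down (3 without Tet3+/+ replicate 1) and 2 up (none without Tet3m/m replicate 2, and 1 without Tet3+/+ replicate 1 or 3), with a median of -0.54. The whole Wnt list counted 10 of 51 down and 5 up, and the latter count was 2 without Tet3m/m replicate 2 and 3 without Tet3+/+ replicate 1 or 3. Wnt1, made at the dorsal midline and the midbrain border, had 393, 503 and 583 normalized counts in Tet3+/+ and 66.6, 162 and 151 in Tet3m/m samples (log2 fold change -2.04, SE 0.31, adjusted p = 0.00221). Wnt6, an ectodermal ligand, had 5950.2, 4617 and 4454 normalized counts in Tet3+/+ and 2252, 2117 and 1148 in Tet3m/m samples (log2 fold change -1.49, SE 0.22, adjusted p = 0.00181), and Wnt7b, a neural ligand, 1509, 1443 and 1299 normalized counts in Tet3+/+ and 492, 728 and 315 in Tet3m/m samples (log2 fold change -1.55, SE 0.24, adjusted p = 0.00227). All 3 ligands were lower in each Tet3m/m sample. The secreted antagonists diverged, since Sfrp1 on chromosome 8 fell from 9871, 6550 and 7877 to 2199, 2324 and 2783 (log2 fold change -1.72, SE 0.14, adjusted p = 9.5e-05) and Sfrp5 rose from 195, 178 and 225 to 604, 643 and 1900.1 (log2 fold change 2.18, SE 0.39, adjusted p = 0.00501), where the third Tet3m/m sample was the highest. Axin2, a common Wnt target, was not called (log2 fold change -0.39, adjusted p = 0.0242).

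In the FGF pathway 3 of 26 genes fell and 4 rose, the latter 1 without Tet3m/m replicate 2 or Tet3+/+ replicate 2 and 2 without Tet3+/+ replicate 3. Fgf15, a ligand of the neural tube, stood at 327, 603 and 651 normalized counts in Tet3+/+ and 75.8, 110.4 and 162 in Tet3m/m samples (log2 fold change -2.18, SE 0.36, adjusted p = 0.00321), and the receptor Fgfr3, typical of neural progenitors, fell from 918, 1205 and 1085 to 352, 553 and 496 (log2 fold change -1.21, SE 0.18, adjusted p = 0.00172). Dusp6, a phosphatase that ERK signalling induces, rose from 4523, 3720 and 4756 to 8658, 7883 and 7814 (log2 fold change 0.91, SE 0.11, adjusted p = 0.000449). All 3 genes had separate groups. In the hedgehog pathway 2 of 14 genes were down and 2 up. The signal transducer Smo, which lies in the chromosome 6 run, fell from 7469, 6855 and 7474 to 2258, 2853 and 2858 (log2 fold change -1.46, SE 0.10, adjusted p = 5.96e-05), and the receptor Ptch1 rose from 4541, 7198 and 5199 to 8548, 14468 and 15322 (log2 fold change 1.16, SE 0.22, adjusted p = 0.00693). Gas1, a coreceptor, was the other gene down (-0.69). The list counted 1 gene up without Tet3m/m replicate 2 or 3 or any 1 Tet3+/+ replicate, and 1 down without Tet3m/m replicate 1. Of 30 BMP pathway genes 4 were down (2 without Tet3m/m replicate 1, and 1 without Tet3+/+ replicate 1 or 3) and 2 up, among them Bmp2 at 398, 401 and 413 against 776, 835 and 539 (log2 fold change 0.80, SE 0.17, adjusted p = 0.0108). Among all genes tested, 5.06% were up and 5.19% down. The shares called in the FGF, hedgehog and BMP lists were above these, but the calls were few in number and went both ways. They are not read as a change of a pathway.

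The highest median of the 41 lists was that of the 2-cell-stage genes, which are normally transcribed in the 2-cell embryo and in a small, changing share of ESCs. This list was chosen with earlier results of these data known, and Zscan4d and Usp17le are also named for the size of their rise. Its rank and counts are therefore a description and not a test. Of 14 tested, 12 were up and none down (0 at an unadjusted p under 0.05), all 14 had a positive fold change, and the median was 2.01. Their summed level was 2150 to 3791 normalized counts in Tet3+/+ and 9939 to 16972 in Tet3m/m samples. Zscan4d, a SCAN-domain protein tied to telomere maintenance in ESCs, stood at 524, 649 and 332 normalized counts in Tet3+/+ and 3228, 2359.8 and 2169 in Tet3m/m samples (log2 fold change 2.39, SE 0.27, adjusted p = 0.000414). Usp17le, a deubiquitinase gene, stood at 177, 198 and 191 normalized counts in Tet3+/+ and 1584, 1094 and 1019 in Tet3m/m samples (log2 fold change 2.67, SE 0.25, adjusted p = 0.000131), and Zfp352, a zinc-finger gene of the 2-cell embryo, rose from 40.5, 56 and 13.8 to 225, 155 and 116 (log2 fold change 2.29, SE 0.47, adjusted p = 0.00986). The groups did not overlap in any of the 3 genes, a condition of naming Zscan4d and Usp17le for the size of their rise. Tcstv1 and Tdpoz3 were not called (log2 fold changes 0.99 and 1.01). The Tet3-/- samples had 710.5 and 391 counts of Zscan4d, below the Tet3m/m samples (knockout minus mutant -2.27, adjusted p = 0.0015). Zscan4 and Usp17l genes are families of near-identical copies, so levels of single members are uncertain.

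The KRAB-type zinc-finger genes named Zfp900 to Zfp999, many of them repressors of transposable elements, were up in 22 and down in 1 of 59 cases (median 0.48). Most of the rises were on chromosome 4, where 13 of 16 were up with a median of 1.71, against 9 of 43 up and a median of 0.33 elsewhere. Zfp980 stood at 103, 137 and 111 normalized counts in Tet3+/+ and 788, 516 and 597 in Tet3m/m samples (log2 fold change 2.41, SE 0.42, adjusted p = 0.00428). Zfp987 rose from 65.5, 91.5 and 57.3 to 347, 343 and 416 (log2 fold change 2.37, SE 0.39, adjusted p = 0.00302), and Zfp986 from 14.5, 26.2 and 11.9 to 103, 100.3 and 104 (log2 fold change 2.56, SE 0.40, adjusted p = 0.00253). In the same family, and among the largest rises of all genes, Zfp600 rose from 39.5, 63.5 and 42.5 to 405, 319 and 340.1 (log2 fold change 2.87, SE 0.32, adjusted p = 0.000383) and Zfp534 from 116, 179 and 105 to 825, 661 and 765 (log2 fold change 2.52, SE 0.36, adjusted p = 0.00157). All Tet3m/m samples were above all Tet3+/+ samples in these 5 genes, which for Zfp600 and Zfp534 was a condition of being named. The single call down, Zfp956 in the chromosome 6 run, was lost without Tet3m/m replicate 2 or Tet3+/+ replicate 3. Copies on chromosome 4 are very alike in sequence, and how the authors assigned reads shared between them is not given in the sources used here.

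Of 32 germline genes kept silent in other cells by promoter methylation, 12 were up and 1 down (median 0.80). The count up was 7 without Tet3m/m replicate 2, 5 without Tet3+/+ replicate 1 and 4 without Tet3+/+ replicate 3, and the call down (Rhox5) was lost without Tet3m/m replicate 1 or 3 or Tet3+/+ replicate 1 or 2. Promoters of such genes often hold the E-box CACGTG, which MGA and MAX of the repressor complex PRC1.6 bind. The promoters of Mael and Taf7l are shown since both hold it and both genes were up with each replicate left out. They are RefSeq promoters of GRCm38.p6, 250 bases before the start with the E-box in capitals, Mael at chr1:166238745-166238994 and Taf7l at chrX:134476491-134476740, both on the minus strand:
Mael: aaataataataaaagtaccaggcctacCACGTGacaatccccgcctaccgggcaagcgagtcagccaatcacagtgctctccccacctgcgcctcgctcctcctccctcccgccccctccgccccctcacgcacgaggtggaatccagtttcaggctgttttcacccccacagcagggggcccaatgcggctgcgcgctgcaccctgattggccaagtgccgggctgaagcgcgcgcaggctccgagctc
Taf7l: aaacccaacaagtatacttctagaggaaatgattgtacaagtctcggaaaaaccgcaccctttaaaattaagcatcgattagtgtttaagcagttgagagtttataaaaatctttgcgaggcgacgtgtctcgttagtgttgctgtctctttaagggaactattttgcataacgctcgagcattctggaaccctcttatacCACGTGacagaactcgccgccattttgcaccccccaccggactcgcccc
CACGTG reads the same on both strands. It occurred in 6.02% of all 32851 promoters, in at least 1 promoter of 9.55% of the 12492 tested genes that have one there, in 15 of the 30 germline genes with a promoter there and in 5 of the 11 of these that were called up (Ddx4, Mael, Taf7l, Slc25a31 and Mov10l1).

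Taf7l, a germ cell form of a general transcription factor subunit, stood at 44.3, 95.3 and 51.4 normalized counts in Tet3+/+ and 316, 234 and 424 in Tet3m/m samples (log2 fold change 2.37, SE 0.33, adjusted p = 0.00123). Mael, which protects the germline from transposons, stood at 120.5, 168 and 92.9 normalized counts in Tet3+/+ and 463, 434 and 536 in Tet3m/m samples (log2 fold change 1.94, SE 0.27, adjusted p = 0.00137), and Syce1, a protein of the synaptonemal complex, at 93.5, 112 and 81 normalized counts in Tet3+/+ and 334, 266 and 404 in Tet3m/m samples (log2 fold change 1.79, SE 0.36, adjusted p = 0.00932). All Tet3m/m samples were above all Tet3+/+ samples. Dazl, an RNA-binding protein of germ cells, was just past the threshold (log2 fold change 1.17, SE 0.35, adjusted p = 0.0496), and its call was lost without any 1 of Tet3m/m replicates 1 to 3 and Tet3+/+ replicates 1 and 3. Dppa2 and Dppa4, which activate 2-cell-stage genes in ESCs, rose from 827, 835 and 684 to 2495, 2081 and 2218 (log2 fold change 1.53, SE 0.28, adjusted p = 0.00544) and from 749, 944 and 668 to 1554, 1330.4 and 1510.1 (log2 fold change 0.91, SE 0.14, adjusted p = 0.00263). Dnmt3l, a cofactor of de novo DNA methylation, rose from 826, 1159 and 921 to 1955, 2883 and 2338 (log2 fold change 1.30, SE 0.17, adjusted p = 0.000909), the single rise among 13 genes of DNA methylation and demethylation, of which 3 fell (Tet3, Gadd45a in the same chromosome 6 run, and Smug1). Without Tet3+/+ replicate 2 a second gene of that list was called up. Dnmt3l had no overlap between the groups, and Tet1 and Tet2 were not called (log2 fold changes 0.13 and 0.11).

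Naive pluripotency genes were mostly higher but seldom called. Of 17 tested, 16 had a positive fold change (median 0.61), and 2, Dppa5a and Fbxo15, were called up. Neither was called without Tet3+/+ replicate 1, 1 was called without Tet3+/+ replicate 3, and 4 were called without Tet3m/m replicate 1. Nanog, a core factor of ground state ESCs, was at 1357, 1856 and 949 in Tet3+/+ and at 1493, 2219 and 3760.5 in Tet3m/m samples (adjusted p = 0.204). Esrrb, an orphan receptor of naive ESCs, was at 997, 1226 and 664 and 900.3, 1343 and 2783 (adjusted p = 0.273). In both genes the groups overlapped and the third Tet3m/m sample was the highest.

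Some genes of Nodal signalling and of endoderm were called up. Nodal, the ligand that patterns the epiblast, stood at 566, 529.6 and 459.6 normalized counts in Tet3+/+ and 1145, 1085 and 1644 in Tet3m/m samples (log2 fold change 1.30, SE 0.17, adjusted p = 0.001). Lefty2, its secreted inhibitor, rose from 183, 212 and 166 to 484, 698 and 1061 (log2 fold change 1.93, SE 0.35, adjusted p = 0.00516), and Eomes, a T-box factor of the primitive streak and visceral endoderm, from 82.9, 97.1 and 63.3 to 226, 325 and 293 (log2 fold change 1.79, SE 0.31, adjusted p = 0.00439). All 3 genes had separate groups. In the pathway as a whole 4 of 19 genes were up and 1 down (2 up without Tet3+/+ replicate 2, and 2 down without Tet3m/m replicate 1 or 3). Of the streak and early mesoderm list 5 of 19 genes were up (3 without Tet3+/+ replicate 1 or 2) and 2 down, Hand2 and Bmp4, of which both calls were lost without Tet3m/m replicate 1 or Tet3+/+ replicate 1 or 3 and 1 without Tet3m/m replicate 2 or Tet3+/+ replicate 2. T, the defining streak gene, was not called (log2 fold change -0.18).

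Of 13 endoderm transcription factors 7 were up and none down (0 at an unadjusted p under 0.05, and 4 up without Tet3+/+ replicate 2 or 3), with a median of 0.83. Hhex, a homeobox gene of anterior endoderm, stood at 206, 234 and 181 normalized counts in Tet3+/+ and 433, 443 and 442 in Tet3m/m samples (log2 fold change 1.09, SE 0.16, adjusted p = 0.00175). Gata4, Gata6, Sox17 and Foxa2, the factors that define endoderm, were not called (log2 fold changes 0.65, 0.20, -0.27 and 0.34). Of 16 genes for uptake and secretion by visceral endoderm, the layer that feeds the early embryo, 8 were up and none down (0 at an unadjusted p under 0.05, and 5 up without Tet3+/+ replicate 1), with a median of 1.21 and summed levels of 10530 to 11119 in Tet3+/+ and 15170 to 20499 in Tet3m/m samples. Cubn, the receptor cubilin, stood at 313, 672 and 621 normalized counts in Tet3+/+ and 2252, 1724 and 4009 in Tet3m/m samples (log2 fold change 2.30, SE 0.41, adjusted p = 0.00464). Apob, the main protein of lipoproteins, stood at 17.3, 41.1 and 19.8 normalized counts in Tet3+/+ and 172, 223 and 301 in Tet3m/m samples (log2 fold change 3.17, SE 0.42, adjusted p = 0.000987), and Rbp4, the carrier of retinol in blood, at 164, 167 and 196 normalized counts in Tet3+/+ and 704, 769.7 and 560 in Tet3m/m samples (log2 fold change 1.93, SE 0.19, adjusted p = 0.000166). The groups did not overlap. Afp and Ttr, secreted markers of this layer, were low and not called (log2 fold changes 0.72 and 1.49). The Tet3-/- samples had 95.4 and 250.5 counts of Cubn, below the Tet3m/m samples (knockout against mutant, adjusted p = 0.000646).

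Some metabolic genes were called down, by smaller folds. Of 30 genes of cholesterol and fatty acid synthesis 11 were down and none up (0 at an unadjusted p under 0.05, and 7 down without Tet3+/+ replicate 3), 29 had a negative fold change and the median was -0.51. Mvd, which makes isopentenyl pyrophosphate and lies on chromosome 8, stood at 3784, 3921 and 4417 normalized counts in Tet3+/+ and 1367, 2331 and 1772 in Tet3m/m samples (log2 fold change -1.18, SE 0.18, adjusted p = 0.00206). Idi1, which acts on the next compound in that pathway, stood at 2221, 2181 and 2564 normalized counts in Tet3+/+ and 1565, 1189.6 and 996 in Tet3m/m samples (log2 fold change -0.91, SE 0.18, adjusted p = 0.00756), and Tm7sf2, a sterol reductase, at 1591, 1319.7 and 1608 normalized counts in Tet3+/+ and 761, 858 and 825 in Tet3m/m samples (log2 fold change -0.88, SE 0.11, adjusted p = 0.0008). Scd2, a desaturase that is among the DEGs with the highest levels, fell from 110480, 95246 and 112420 to 75844, 70177 and 61561 (log2 fold change -0.62, SE 0.12, adjusted p = 0.00791). Of the 7 fatty acid genes 2 were down, and 1 without Tet3m/m replicate 3 or Tet3+/+ replicate 3. No Tet3m/m sample reached a Tet3+/+ sample in Mvd, Idi1, Tm7sf2 and Scd2. Srebf2, the regulator of the pathway, was not called (log2 fold change -0.21). The sterol regulatory element TCACNCCAC, searched on both strands, was found in 1.05% of promoters, in 1.3% of the tested genes with a promoter and in 1 of the 21 listed genes with a promoter (Hmgcs1, not called).

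Of 27 genes of glycolysis and the response to low oxygen 8 fell and none rose (0 at an unadjusted p under 0.05, and 5 fell without Tet3+/+ replicate 2), 6 of them among the 11 oxygen-response genes (median -0.79). Ndrg1, a stress-response gene, stood at 641, 889 and 655 normalized counts in Tet3+/+ and 179, 182 and 114 in Tet3m/m samples (log2 fold change -2.21, SE 0.22, adjusted p = 0.000182). Egln1, the oxygen-sensing prolyl hydroxylase, on chromosome 8, fell from 5632, 6565 and 6100.3 to 2821, 3164 and 3484 (log2 fold change -0.95, SE 0.12, adjusted p = 0.000757), and Vegfa, the vascular growth factor, from 5831, 6509.8 and 4820.3 to 2760.4, 2750.1 and 4009 (log2 fold change -0.86, SE 0.18, adjusted p = 0.0108). Ddit4, an inhibitor of mTOR signalling, fell from 6174, 6581 and 4976 to 2728, 3318 and 3492 (log2 fold change -0.89, SE 0.14, adjusted p = 0.00291). The groups of all 4 genes were separate. The D-type cyclins, which drive entry into S phase, fell as well, Ccnd1 from 6788, 7345 and 8018 to 2802, 2954 and 2559.9 (log2 fold change -1.41, SE 0.11, adjusted p = 5.96e-05) and Ccnd2 from 11144, 11105 and 12460 to 5097, 5027 and 6131 (log2 fold change -1.10, SE 0.11, adjusted p = 0.000175), whereas Ccnd3 was not called (log2 fold change -0.23). They and Cdkn1c made up the 3 of 14 cyclin and inhibitor genes that were down, with none up (1 at an unadjusted p under 0.05).

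Transcripts of the mitochondrial genome were higher, 4 of 13 up and none down (0 at an unadjusted p under 0.05) with a median of 0.66, and 7 were up without Tet3m/m replicate 3, with DESeq2 also 7 and with edgeR 6. The complex I subunit mt-Nd2 stood at 20996, 17605 and 20618 normalized counts in Tet3+/+ and 57208, 36075 and 30092 in Tet3m/m samples (log2 fold change 1.01, SE 0.19, adjusted p = 0.00755), highest in the first Tet3m/m sample. Mitochondrial genes took 0.957%, 0.804% and 0.914% of all normalized counts in the Tet3+/+ samples and 1.81%, 1.35% and 1.09% in the Tet3m/m samples, so all Tet3m/m samples were above all Tet3+/+ samples. The Tet3-/- samples had 1.42% and 1.36%. Ribosomal protein genes of the nucleus had few calls, with 2 of 83 up, none down (2 at an unadjusted p under 0.05) and a median of -0.01, and both rises were in copies with germline expression, Rpl39l at 123, 192 and 98.8 against 696, 837 and 484 (log2 fold change 2.29, SE 0.33, adjusted p = 0.00167) and Rpl10l (1.29), the latter lost without Tet3+/+ replicate 3.

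The counts of further lists are to be read against the 5.06% of all genes that were up and the 5.19% that were down. Interferon response and antigen presentation had 1 of 32 genes up (0 without Tet3+/+ replicate 1 or 3, and 2 without Tet3m/m replicate 3) and 3 down, and the smooth muscle list 3 of 20 up, with none left without Tet3m/m replicate 2 or Tet3+/+ replicate 2. Collagens counted 5 of 39 up and 4 down, of which Col4a5, a basement membrane chain at 5379, 4648 and 4178 against 2382, 2298 and 1525, was down with each replicate left out (log2 fold change -1.21, SE 0.18, adjusted p = 0.00188). The rises among collagens numbered 1 without Tet3m/m replicate 2 or Tet3+/+ replicate 1, 2 without Tet3+/+ replicate 2 and 3 without Tet3+/+ replicate 3, and the falls 7 without Tet3m/m replicate 1, 2 without Tet3+/+ replicate 1 and 1 without Tet3+/+ replicate 2. Trophoblast-associated genes had 5 of 15 down, with Plac1, a placental X-linked gene, at 283, 222 and 385 normalized counts in Tet3+/+ and 53.3, 50.6 and 44.8 in Tet3m/m samples (log2 fold change -2.53, SE 0.24, adjusted p = 0.000159) and the surface ectoderm factor Tfap2a falling from 327, 548 and 455 to 83, 158 and 113 (log2 fold change -1.92, SE 0.27, adjusted p = 0.00125). Cdh5, an endothelial cadherin gene on chromosome 8, fell from 395, 323 and 417 to 30.7, 24.4 and 30.5 (log2 fold change -3.68, SE 0.25, adjusted p = 5.96e-05), while Flt1, a VEGF receptor, rose from 555, 730.4 and 824 to 1604, 1433 and 1555 (log2 fold change 1.14, SE 0.18, adjusted p = 0.00243). Replication-dependent histones (2 of 49 up), p53 targets (1 of 15 down) and Bcl2 family members (1 of 15 up, Hrk at 1.24) added few calls.

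Part of the downregulation followed chromosome position. From Foxp2 to Aak1, a run of 388 of the 858 genes tested on chromosome 6 that includes Tet3, 234 genes were down and none was up by limma (1 by DESeq2, 1 by edgeR and 3 at an unadjusted p under 0.05), and the median log2 fold change was -0.89. The Tet3m/m samples had medians of -0.87, -0.88 and -0.85 there, and the Tet3+/+ samples, each against the other 2, 0.05, -0.06 and 0.04. The groups were thus far apart, and 355 of the 388 genes were lower. The bounds of the run were set by these same fold changes, so its median and counts follow in part from that choice. The rest of chromosome 6 had a median of 0.05 with 25 genes up and 14 down. Within the run, Stra8, a meiosis gene that RA induces, was not lower, at 7558, 7466 and 6799 normalized counts in Tet3+/+ and 9229, 8696 and 9237 in Tet3m/m samples (log2 fold change 0.32, adjusted p = 0.147), and the muscle membrane repair gene Dysf fell further than the median, from 1329, 1210.4 and 1367 to 424, 315 and 196 (log2 fold change -2.13, SE 0.23, adjusted p = 0.000351). The part of DNA copy number in the levels of this run was not tested.

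Chromosome 8 was lower as a whole, with 125 of 929 genes down, 15 up and a median of -0.34. Its medians were -0.38, -0.34 and -0.29 in the Tet3m/m samples and -0.12, -0.06 and 0.20 in the Tet3+/+ samples. Tet3+/+ replicate 3 stood above the other Tet3+/+ samples on chromosome 8 and, at 0.19 against -0.14 and -0.05, on chromosome 14. Without that sample the chromosome 8 median was -0.28, with 67 genes down and 8 up. The rises on chromosome 8 numbered 8 without Tet3+/+ replicate 1, 10 without Tet3+/+ replicate 2 or Tet3m/m replicate 3 and 6 without Tet3m/m replicate 2.

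**Figure D4:**
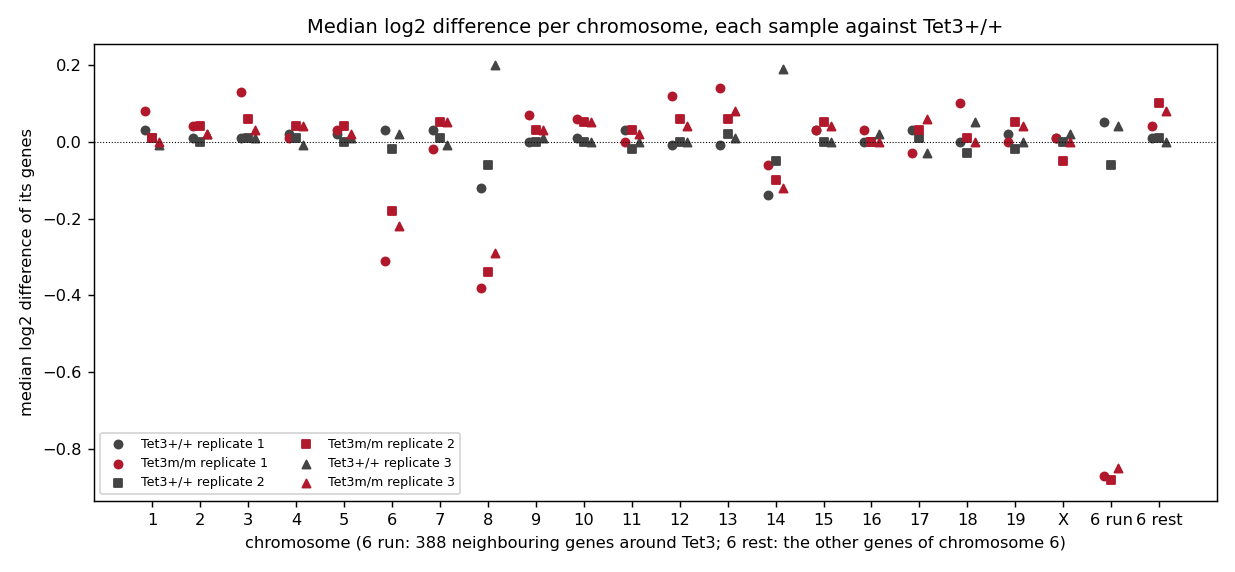
Median log2 difference of the genes of each chromosome (x axis) in each Tet3m/m sample (red) against the Tet3+/+ mean and in each Tet3+/+ sample (grey) against the other 2, with the chromosome 6 run and the rest of chromosome 6 shown apart at the right. The run sits between -0.88 and -0.85 in the Tet3m/m samples, chromosome 8 between -0.38 and -0.29, and Tet3+/+ replicate 3 is at 0.20 on chromosome 8.

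The Tet3m/m and Tet3+/+ genotypes were also sequenced with an empty vector in separate transfection experiments, which share no sample with the day 3 set. By the paper's methods, cells of the Dnmt1 experiment were transfected as RA treatment began and selected with blasticidin before collection. Those of the Tet3-CD experiment were transfected during RA treatment and collected later than day 3. Time and handling thus differ between the experiments along with their results. In the experiment with Dnmt1 (2 against 2 samples) 21.2% of 18055 genes were called, 10.3% up and 10.9% down, and in the one with the TET3 catalytic domain, Tet3-CD (1 sample each, so no test), 36.3% of 17481 genes were past a fold of 1.5, 20.2% higher and 16.1% lower. Of the day 3 DEGs measured there, 700 of 892 upregulated genes (78.5%) and 792 of 904 downregulated genes (87.6%) had the same direction in the Dnmt1 experiment, against 66.7% and 67% of all genes. In the Tet3-CD experiment the shares were 86.9% and 82.4%, against 66.6% and 65.4%. The run on chromosome 6 was low in both (median log2 difference -0.75 and -0.87), and chromosome 8 in the Dnmt1 experiment alone (-0.45 and -0.08).

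Programs differed in whether they recurred. Mest was low in both experiments, by -7.81 and -6.20 on the log2 scale, and Serpinb9e by -6.94 and -2.13. The 2-cell-stage genes had a median of -0.06 and no call in the Dnmt1 experiment (0 of 14 by limma, 3 at an unadjusted p under 0.05) but 2.92 in the Tet3-CD experiment, with Zscan4d at 4361 and 3852 normalized counts in wild type and 3620 and 4219.6 in mutant samples of the former. Genes of visceral endoderm had medians of 1.08 and -1.88, with Cubn at 2.38 and -2.34, and endoderm transcription factors of 0.97 and -1.38. The 16 Wnt ligands had medians of -1.93 and 1.32. In the Tet3-CD experiment 9 of them were higher and 3 lower past a fold of 1.5. Wnt6 was at -4.52 and 1.38. Naive pluripotency genes had medians of 1.41 and 1.62, with 16 of 17 called up in the Dnmt1 experiment. Notch genes, at -0.34 and -0.12, were lower in median in both experiments, and so were the genes of cholesterol and fatty acid synthesis, at -0.41 and -0.36. Transcripts of the mitochondrial genome, higher on day 3, had medians of 0.20 and -0.36. Genes of glycolysis and the response to low oxygen had medians of 0.16 and -0.71, with 5 called up and 2 down in the Dnmt1 experiment. Neural factors had medians of -0.31 and -0.96, but in the Dnmt1 experiment 10 of 32 were called up and 12 down, with the 6 proneural factors at a median of -1.29 and the 11 genes of neuronal structure at 0.83 (7 up, 1 down).

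**Figure D5:**
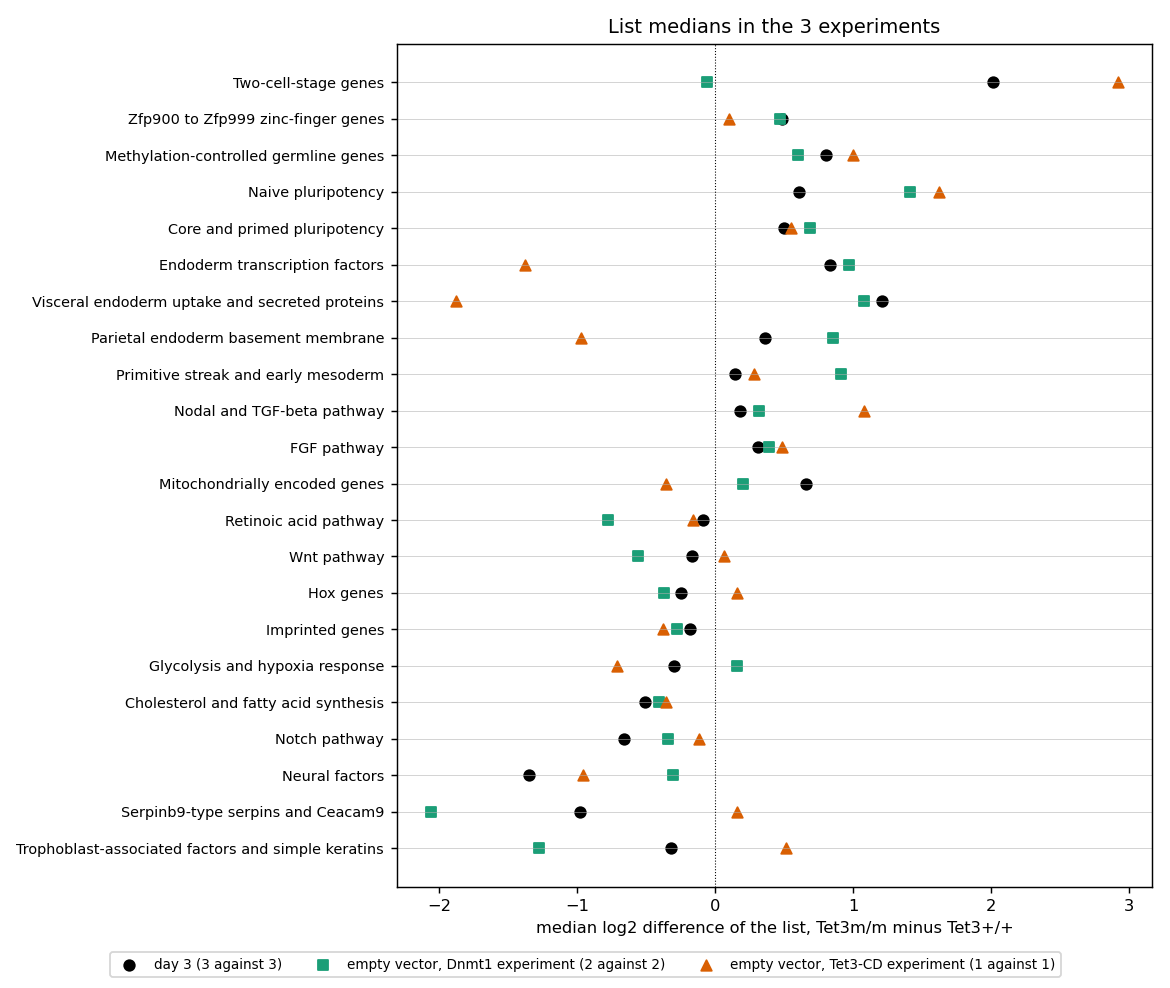
Median log2 difference between Tet3m/m and Tet3+/+ samples (x axis) of 22 gene lists (y axis) on day 3 (black), with the empty vector in the Dnmt1 experiment (green) and in the Tet3-CD experiment (orange, 1 sample each). The 3 points lie on the same side of 0 for germline genes, naive pluripotency and sterol synthesis, whereas visceral endoderm is at 1.21, 1.08 and -1.88 and the 2-cell-stage list at 2.01, -0.06 and 2.92.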

How the data were processed

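RNA-seq of day 3 NE cells was analysed in 6 samples, 3 Tet3m/m and 3 Tet3+/+, grouped by the genotype in the labels. The authors trimmed reads with Trim Galore 0.6.7, aligned them to the mouse genome with STAR 2.7.9a, used featureCounts to count reads per gene, and divided the counts by DESeq2 size factors. What was deposited is a signal in units of normalized counts. In all samples compared here 100% of them are whole multiples of what 1 read is worth, within 0.01, so that reads were recovered. Reads were not recovered for Dnmt1-overexpressing Tet3+/+ replicate 2 and for the empty-vector Tet3-/- sample of the Tet3-CD experiment. The methods name the mm39 assembly and the labels mm10. The strand setting of the counting and the treatment of reads shared between copies are not given in the sources used here. The deposited lowest mean of a gene was 9.46.

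Of 17948 genes, 17915 with a mean value of at least 10 over the 8 day 3 samples were fitted with limma 3.58.1 (R 4.3.3) on log2(value + 1) with an empirical Bayes trend, the 2 Tet3-/- samples sharing the spread. Fold changes are on this scale and understate those of low genes. Benjamini-Hochberg adjustment of p-values covered all genes tested. The same fit served the 12 samples of the Dnmt1 experiment (18055 of 18091 genes), whose 2 empty-vector Tet3+/+ columns carry no distinct number. In the Tet3-CD experiment (17481 of 17705 genes) differences were taken without a test. Reads per sample of the empty-vector libraries were 31155842 to 44732358.

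Named genes are Tet1, Tet2 and Tet3, the 10 largest rises and falls among DEGs with separate groups, a mean of at least 200 in the higher group and an established symbol, the 5 DEGs with the highest mean, and up to 4 DEGs per list and direction. Genes named beyond this rule (such as H19, Stra8, Hes1, Nanog, Cyp26a1 and Dazl) are list members given for their role, or are said to be chosen later. Members and lists were chosen with earlier results of these data known. The alternatives were pseudocounts of 0.1 and 5, other filters, DESeq2 1.42.0 and edgeR 4.0.16 on recovered reads, TMM scaling, no fold threshold, the compared samples alone, a replicate block, each replicate left out, and chromosomes 6 and 8 left out. Leaving out replicates of the Dnmt1 experiment was added after seeing the data.

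Chromosomes come from the GENCODE M21 annotation of GRCm38, matched by name for 99.2% of genes. The chromosome 6 run is the stretch of at least 100 neighbouring genes with the greatest contrast in fold change to the remaining genes of that chromosome, after capping values at 2 either way. Replicates were compared by chi-square tests of their reads, and no pair agreed within sampling noise. Same-numbered samples were not paired (correlations of deviations 0.08, 0.03 and 0.00). The code of the fit was tried on simulated data with an equal spread in all groups. The real Tet3m/m pairs differed more (chi-square per degree of freedom 36.3 to 96.3) than the Tet3+/+ pairs (15 to 24.8). The simulation therefore does not gauge the error rate in these data. Python 3.11.15, numpy 2.4.6, pandas 2.3.3, scipy 1.17.1 and matplotlib 3.10.9 were used. Samples that overexpress Dnmt1 entered the fit of that experiment through its spread alone. WGBS, CUT&Tag, hmeDIP and Tet3-CD-overexpressing samples were not analysed here.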

Additional observations from a re-analysis of the deposited data

Results flagged for a closer look

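Of the day 3 DEGs, 25 that were up and 31 that were down were called in the opposite direction with the empty vector in the Dnmt1 experiment, all with separate groups in both. The 6 of these that the naming rule covers are given here, and the difference between the experiments was not tested. Robo3, the midline guidance receptor, had a log2 fold change of -3.23 on day 3 and of 3.42 in the Dnmt1 experiment, where wild type samples had 17.8 and 18.6 and mutant samples 167 and 249 normalized counts. Sox3, a neural progenitor factor, had -1.24 on day 3, a call lost without Tet3+/+ replicate 3, and 0.62 in the Dnmt1 experiment. Fst, the secreted activin inhibitor follistatin, had 1.27 and -0.75. Pth1r, a parathyroid hormone receptor that parietal endoderm expresses, had -0.75 and 1.08. Among actin-related genes, Myh11, a smooth muscle myosin, had 1.73 and -0.88, and Csrp1, a LIM protein, had 0.97 and -0.78. The day 3 calls of both were lost without Tet3m/m replicate 1 or 2 or Tet3+/+ replicate 2, and that of Myh11 also without Tet3+/+ replicate 1.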

How the results depend on the processing

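The 1836 DEGs numbered between 1565 and 2312 under the alternatives that kept all replicates and the fold threshold and all chromosomes (1893 with the replicate block), 2485 without the fold threshold and 1250 to 1967 with each replicate left out. Upregulated DEGs numbered 561 to 999 and downregulated ones 689 to 971 with a replicate left out. The share of DEGs that were up, 49.4%, was 53.7% with DESeq2 and 46.1% with a mean of at least 50, and 41.5% to 50.8% with a replicate left out. Without chromosomes 6 and 8, which removes genes that were mostly lower, 536 genes were down and the share up was 60.8%. The share of DEGs with the same direction in the Dnmt1 experiment, 83.1%, was then 80%. The 3831 DEGs of that experiment numbered 3513 to 3969. The TMM scale of each day 3 sample, divided by its deposited scale, lay between 0.9919 and 1.005. Of the 187 named DEGs, none reversed and 122 stayed past the adjusted p in all of their refits. In 1863 refits with all replicates 18 lost it, and in 3359 refits in all 230 did. The cause of these shifts was not tested. Same-numbered samples did not deviate together, so no pairing was assumed, and the replicate block moved the count of DEGs by less than 1.5 times. No paired analysis was possible in the Dnmt1 experiment because its wild type columns carry no distinct numbers. Genes with a mean under 10 normalized counts were not tested.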

Other observations

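Further gene groups held single members that moved with each replicate left out. Vstm2l, a gene of neural secretion, and Pla2g1b, a secreted phospholipase, were among the largest rises, Vstm2l from 21.2, 20.5 and 15.8 to 79.9, 113 and 407 (log2 fold change 2.96, SE 0.56, adjusted p = 0.00678) and Pla2g1b from 47.2, 48.6 and 13.8 to 140.3, 240.3 and 319 (log2 fold change 2.75, SE 0.49, adjusted p = 0.00488) by limma. Basement membrane genes of parietal endoderm counted 3 of 22 up and 1 down, and the rises numbered 1 without Tet3+/+ replicate 1 or 2 and 5 without Tet3m/m replicate 2. Fst, of that list, rose from 523, 612 and 683 to 1755, 1238 and 1405 (log2 fold change 1.27, adjusted p = 0.000618). Genes of the core and primed states of pluripotency counted 3 of 16 up, Dppa2, Dppa4 and Sall4 (0.81, lost without Tet3m/m replicate 2 or Tet3+/+ replicate 1 or 3), and 2 down, Sox3 and Zic2, of which 1 was left without Tet3m/m replicate 1 or 2 or Tet3+/+ replicate 1 or 2 and 0 without Tet3+/+ replicate 3. Muscle genes moved both ways (2 of 21 up, 3 down), and Myl4, an atrial myosin light chain, fell from 295, 229 and 174 to 49.2, 79.2 and 56 (log2 fold change -1.90, SE 0.35, adjusted p = 0.00592). The rises there numbered 1 without Tet3m/m replicate 2 or 3 or any 1 Tet3+/+ replicate. Of 22 cadherin and EMT genes 3 fell, and Cdh3, P-cadherin on chromosome 8, went from 6374, 5718 and 6033 to 3776, 3844 and 3030.4 (log2 fold change -0.77, SE 0.14, adjusted p = 0.00548). That count was 1 without Tet3m/m replicate 3 or any 1 Tet3+/+ replicate.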
